A study of Solanum lycopersicum with 6 samples.

Results

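The B-box and GATA zinc finger factors of tomato were taken as all rows of the deposited gene table described as CONSTANS-like, B-box zinc finger or GATA transcription factor and not placed in the plant circadian rhythm pathway. They numbered 65 of 36224 rows, and the pathway condition removed 0. By description, 20 are CONSTANS-like, 9 are B-box and 36 are GATA genes, and identifiers place them on all 12 chromosomes. The fruit wall (pericarp, cultivar Ailsa Craig) was sampled at 37 days after anthesis from a transgenic line overexpressing JMJ6, a histone demethylase (JMJ6-OE), and from the wild type (WT), with 3 libraries each. The labels give neither the promoter that drives the transgene nor the number of independent lines, and nothing in them ties a replicate to a plant of its own. The p-values therefore measure the spread between these libraries, which may be technical.

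B-box proteins carry zinc-binding B-box domains at the amino terminus, and many CONSTANS-like members add a carboxy-terminal CCT domain. In Arabidopsis several of them link light to transcription, through the activator HY5 in seedlings and through the florigen gene FT in flowering. GATA factors bind DNA through a single zinc finger, and some promote chlorophyll formation and chloroplast growth in Arabidopsis. In tomato fruit the chloroplasts of green pericarp turn into carotenoid-storing chromoplasts as the fruit ripens.

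The libraries held 28539410 to 36487547 counts. Replicate 1 was the farthest library in both groups. The chi-square per gene, about 1 for sampling noise alone, was 53 and 71.8 between JMJ6-OE replicate 1 and JMJ6-OE replicates 2 and 3, which gave 19.2 between them. It was 36.1 and 38.4 between WT replicate 1 and WT replicates 2 and 3, which gave 24.7 between them. No row is named JMJ6. Solyc06g008490.3, the JmjC-domain row of chromosome 6, which the table describes as JMJ16, stood at 31.5, 37.4 and 41.3 CPM (counts relative to the scaled library size) in JMJ6-OE libraries, against 26.9, 23.5 and 25.5 CPM in WT libraries. Rows with such descriptions on other chromosomes were not looked at, so the match of Solyc06g008490.3 to the overexpressed gene is uncertain. Polygalacturonase PG2, a fruit softening enzyme, stood at 3868 to 5099 CPM in JMJ6-OE libraries, against 36.4 to 48.8 CPM in WT libraries. It belongs to a list of 52 fruit ripening rows (with expansin 1, E8 and ACC oxidase), of which 18 were tested, 7 rose and 5 fell. Over all 20143 tested genes, 17.5% were called higher and 16.8% lower in JMJ6-OE, and the counts of the lists given here are to be read against these shares. For every gene below, a response to the transgene and a difference in ripening stage at the same fruit age cannot be told apart. In bulk tissue, a change in the cells that express a gene and a change in its RNA per cell cannot be told apart either. Of 28 rows with seed descriptions (oleosins and storage proteins), 10 had no count, 23 were not tested, and 1 of 5 tested was higher, an oleosin 1-like gene (the list's median log2 fold change was -0.12). Their summed level was 31.9 to 69.2 CPM in JMJ6-OE libraries, against 10.4 to 14.6 CPM in WT libraries. Of 41 rows with phloem descriptions, 24 are F-box proteins. Of the 28 tested, 7 rose (25%) and 6 fell (21.4%), and the summed level was 413.7 to 437.4 CPM in JMJ6-OE libraries, against 459.0 to 489.5 CPM in WT libraries. All 4 tested sieve element occlusion genes rose, with a summed level of 18.9 to 36.6 CPM in JMJ6-OE libraries, against 6.36 to 10.3 CPM in WT libraries over all 6 such rows. The part of these tissues in the results below was not tested.

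JMJ6-OE was set against WT to ask which of these factors differ in transcript level when the demethylase is overexpressed. The B-box genes that changed rose, led by B-box 20, which was 3.52-fold higher in JMJ6-OE. The CONSTANS-like genes that changed fell, led by genes described as CONSTANS-LIKE 16, up to 5.49-fold lower. Most of the GATA genes that changed fell, and GATA21, low in WT at 0.676 to 1.08 CPM, was nearly undetected in JMJ6-OE. Of the 65 genes, 52 passed the filter on low counts, 7 rose and 19 fell at an adjusted p of 0.05 (edgeR quasi-likelihood F test, Benjamini-Hochberg), and 26 did not pass the test. Over all 20143 tested genes, 34.3% were called, 17.5% higher and 16.8% lower in JMJ6-OE. The share called lower among the tested B-box, CONSTANS-like and GATA genes was 36.5%, and the share called higher was 13.5%. At least a 2-fold decrease was found for 11 of the 52, where the background is 8.97%, and at least a 2-fold increase for 3, where it is 5.77%. The median log2 fold change was -0.33, against -0.01 over all tested genes. It was -0.51 without JMJ6-OE replicate 1 and -0.20 without JMJ6-OE replicate 3. By class, 4 of 7 B-box genes rose and 0 fell, 0 of 19 CONSTANS-like genes rose and 9 fell, and 3 of 26 GATA genes rose and 10 fell. Outside the rule are 10 rows described as CONSTANS with a number, CONSTANS interacting protein or B-box domain protein. Of the 9 tested, 4 rose (44.4%) and 2 fell (22.2%), with a median log2 fold change of 0.48. For 33 of the 52 genes (63.5%) every JMJ6-OE library lay on one side of every WT library, which held for 51.4% of all tested genes. Over all tested genes, 3517 were called higher and 3394 lower. With 1 library left out in turn, these became 2027 to 4169 higher and 2046 to 3962 lower. How many calls over all genes held every time was not computed. Among the 52 genes, 4 of the 7 increases and 11 of the 19 decreases held every time. The counts were 10 higher and 19 lower without JMJ6-OE replicate 1, 4 and 11 without JMJ6-OE replicate 2, 4 and 12 without JMJ6-OE replicate 3, 5 and 14 without WT replicate 1, 4 and 13 without WT replicate 2, and 4 and 16 without WT replicate 3. The authors' deposited table has a false discovery rate under 0.05 for 25 of these 26 genes in the same direction, and for no other member.

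**Figure D1:**
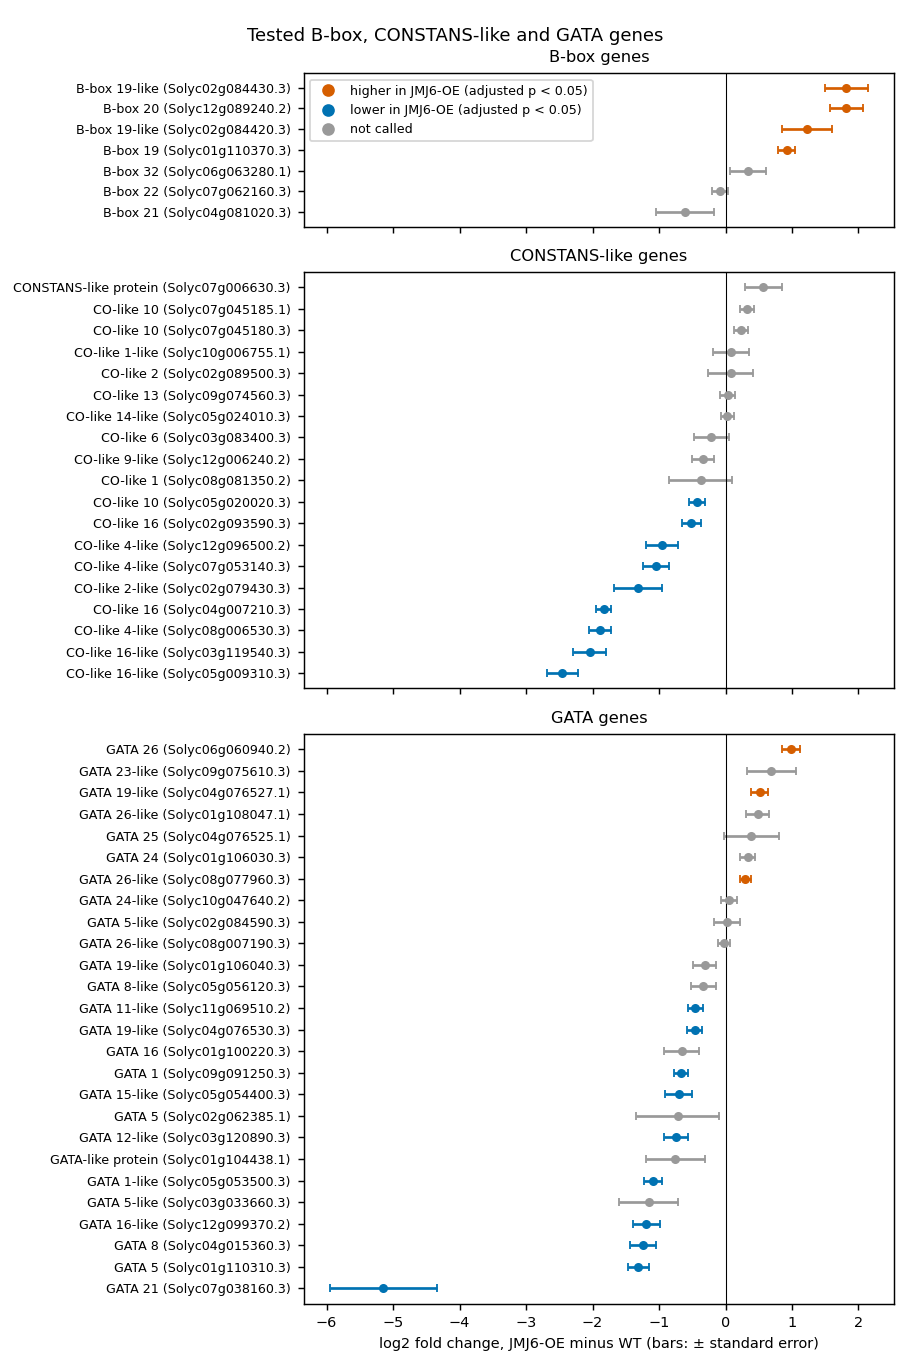
Log2 fold change of JMJ6-OE against WT for the 52 tested genes, by class, with bars of 1 standard error on each side. Orange points are called higher (7), blue points called lower (19) and grey points not called (26). Called B-box genes lie right of 0 and called CONSTANS-like genes left of it, and the value of GATA21 is a fitted one that rests on 2 counts in JMJ6-OE.

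B-box 20 (Solyc12g089240.2, symbol BBX21 in the table) was the most abundant of these genes in JMJ6-OE, per length. In Arabidopsis BBX20 is a partner of HY5, and a tomato protein named BBX20 is known to raise carotenoid content by activating the phytoene synthase gene PSY1. Its transcript stood at 94.8, 135 and 155 CPM in JMJ6-OE libraries, against 27.9, 46.6 and 34.5 CPM in WT libraries. The groups are well apart, with the lowest JMJ6-OE library far above the highest WT library. The log2 fold change was 1.82 ± 0.25 (SE, as for every fold change below), with an adjusted p of 0.0025. The table also describes Solyc01g110180.3 as B-box 20. That row had 2 to 4 counts in JMJ6-OE libraries and 4 to 13 counts in WT libraries, and was not tested.

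All 3 genes described as B-box 19 rose. In Arabidopsis BBX19 delays flowering by keeping CONSTANS from activating FT. Solyc01g110370.3 stood at 10.04, 11.8 and 10.4 CPM in JMJ6-OE libraries, against 5.38, 5.86 and 5.79 CPM in WT libraries, with tight replicates in both groups (log2 0.92 ± 0.13, adjusted p = 0.0025). The B-box 19-like gene Solyc02g084430.3 had fewer counts, at 2.20, 2.85 and 3.34 CPM in JMJ6-OE libraries, against 0.609, 1.05 and 0.695 CPM in WT libraries (1.82 ± 0.32, adjusted p = 0.0052). Its neighbour Solyc02g084420.3 stood at 1.15, 1.75 and 1.96 CPM in JMJ6-OE libraries, against 0.812, 0.827 and 0.438 CPM in WT libraries. It did not overlap between the groups but had a wider error (1.23 ± 0.38, adjusted p = 0.041). This call was lost without JMJ6-OE replicate 2 or 3 (adjusted p = 0.12 for each) or WT replicate 1, 2 or 3 (adjusted p = 0.075, 0.080 and 0.12). The last 2 genes carry adjacent identifiers and the same description, so reads may have been split between them.

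The other 3 tested B-box genes were not called. B-box 22 (Solyc07g062160.3), whose Arabidopsis namesake works with HY5 in greening seedlings, was abundant, at 36.7, 47.6 and 47.6 CPM in JMJ6-OE libraries, against 47.0, 48.4 and 43.9 CPM in WT libraries. These groups overlap (log2 fold change -0.08 ± 0.12, adjusted p = 0.65). B-box 21 (Solyc04g081020.3), an activator of HY5 in Arabidopsis, averaged 1.28 ± 0.689 CPM in JMJ6-OE and 1.97 ± 0.523 CPM in WT (mean ± SD, n = 3 each). B-box 32 (Solyc06g063280.1), which opposes BBX21 in Arabidopsis, averaged 2.60 ± 0.0313 CPM in JMJ6-OE and 2.05 ± 0.613 CPM in WT (n = 3 each). The log2 fold change of B-box 21 was -0.61 ± 0.43 (adjusted p = 0.31), with -1.11 without JMJ6-OE replicate 1 (adjusted p = 0.062) and -0.32 without JMJ6-OE replicate 3. That of B-box 32 was 0.34 ± 0.27 (adjusted p = 0.36), with 0.12 without WT replicate 1 and 0.55 without WT replicate 3. A second B-box 22-like row (Solyc12g005420.2) had 6 counts in JMJ6-OE replicate 2 and none elsewhere.

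All 4 genes described as CONSTANS-LIKE 16 fell. A petunia gene of this name raises chlorophyll content in petals. Solyc05g009310.3 had the largest decrease of the class, at 8.71, 5.89 and 4.56 CPM in JMJ6-OE libraries, against 38.7, 35.2 and 31.7 CPM in WT libraries (log2 fold change -2.46 ± 0.23, adjusted p = 5.5e-04). Every WT library is more than 3 times the highest JMJ6-OE library. Solyc04g007210.3 stood at 12.5, 11.4 and 9.75 CPM in JMJ6-OE libraries, against 39.4, 39.6 and 41.0 CPM in WT libraries. Its replicates were tight, and it had the lowest adjusted p of the 52 genes (-1.83 ± 0.11, adjusted p = 1.0e-04). Solyc03g119540.3 stood at 4.93, 4.37 and 2.63 CPM in JMJ6-OE libraries, against 19.2, 14.3 and 15.9 CPM in WT libraries (-2.04 ± 0.24, adjusted p = 0.0012). The fourth, Solyc02g093590.3, which carries the symbol COL7, changed least. It stood at 12.9, 11.3 and 10.4 CPM in JMJ6-OE libraries, against 18.9, 15.5 and 15.009 CPM in WT libraries (-0.51 ± 0.14, adjusted p = 0.028). That call was lost without JMJ6-OE replicate 2 or 3 (adjusted p = 0.096 and 0.085) or WT replicate 1 or 2 (adjusted p = 0.072 and 0.059).

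All 3 genes described as CONSTANS-LIKE 4 also fell. Arabidopsis COL4 represses flowering. Solyc08g006530.3 stood at 9.52, 8.26 and 6.86 CPM in JMJ6-OE libraries, against 35.9, 27.3 and 28.1 CPM in WT libraries, a 3.70-fold decrease without overlap (-1.89 ± 0.17, adjusted p = 3.9e-04). Solyc07g053140.3, with the symbol MIP1A, stood at 8.25, 13.3 and 9.86 CPM in JMJ6-OE libraries, against 18.2, 23.4 and 23.2 CPM in WT libraries (-1.04 ± 0.20, adjusted p = 0.0066). Solyc12g096500.2 was the most abundant of these, also per length, at 67.0, 39.1 and 47.9 CPM in JMJ6-OE libraries, against 126, 86.1 and 86.0 CPM in WT libraries. In each group replicate 1 was the highest, and the groups stayed apart (-0.95 ± 0.24, adjusted p = 0.022). This call was lost without JMJ6-OE replicate 2 or 3 (adjusted p = 0.063 and 0.080) or WT replicate 1 (adjusted p = 0.058). These genes were grouped by description, and symbols group them otherwise. Solyc08g081350.2 has the symbol COL4 but is described as CONSTANS-LIKE 1, and was not called (-0.38 ± 0.48, adjusted p = 0.58). The symbol MIP1A is also given to B-box 32, which was not called.

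Of 3 genes described as CONSTANS-LIKE 10, only Solyc05g020020.3 was called. It stood at 42.3, 32.7 and 36.2 CPM in JMJ6-OE libraries, against 54.2, 46.3 and 49.1 CPM in WT libraries, a small but separated decrease (-0.43 ± 0.12, adjusted p = 0.029). Leaving out JMJ6-OE replicate 2 or 3 (adjusted p = 0.11 and 0.081) or WT replicate 1, 2 or 3 (adjusted p = 0.076, 0.052 and 0.062) ended the call. The neighbouring rows Solyc07g045180.3 and Solyc07g045185.1 did not pass the test. Solyc07g045180.3 stood at 19.7, 20.5 and 20.3 CPM in JMJ6-OE libraries, against 15.3, 18.1 and 18.0 CPM in WT libraries (0.23 ± 0.11, adjusted p = 0.13). Solyc07g045185.1 stood at 23.6, 25.7 and 27.6 CPM in JMJ6-OE libraries, against 22.4, 18.9 and 20.3 CPM in WT libraries (0.32 ± 0.11, adjusted p = 0.057). The groups of both rows did not overlap, and Solyc07g045185.1 was called by DESeq2 (adjusted p = 0.047) and without JMJ6-OE replicate 1 (adjusted p = 0.034). A CONSTANS-LIKE 2-like gene of very low level (Solyc02g079430.3) averaged 0.338 ± 0.0651 CPM in JMJ6-OE and 0.842 ± 0.117 CPM in WT (n = 3 each), a call that ended whichever library was left out (-1.32 ± 0.36, adjusted p = 0.027, and 0.052 to 0.099 with 1 library fewer). It is the 1 called gene that the authors' deposited table puts above a false discovery rate of 0.05 (0.054).

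CONSTANS-LIKE 13 (Solyc09g074560.3), which promotes hypocotyl elongation in Arabidopsis, was the most abundant CONSTANS-like gene in JMJ6-OE and had overlapping groups. It stood at 125, 103 and 95.2 CPM in JMJ6-OE libraries, against 106, 111 and 98.8 CPM in WT libraries (0.03 ± 0.12, adjusted p = 0.87). CONSTANS-LIKE 14-like (Solyc05g024010.3) stood at 58.0, 54.2 and 64.4 CPM in JMJ6-OE libraries, against 60.4, 56.9 and 55.7 CPM in WT libraries (0.03 ± 0.09, adjusted p = 0.83). CONSTANS-LIKE 9-like (Solyc12g006240.2) stood at 12.5, 9.99 and 14.7 CPM in JMJ6-OE libraries, against 16.5, 17.01 and 13.5 CPM in WT libraries (-0.34 ± 0.17, adjusted p = 0.17). JMJ6-OE replicate 3 lay within the WT range and the other 2 JMJ6-OE libraries below it. CONSTANS-LIKE 6 (Solyc03g083400.3) spread widely in JMJ6-OE. It stood at 17.6, 12.7 and 7.86 CPM in JMJ6-OE libraries, against 15.1, 15.4 and 13.7 CPM in WT libraries, so that the WT values lie inside the JMJ6-OE range (-0.21 ± 0.27, adjusted p = 0.57). The remaining 4 tested genes (Solyc07g006630.3, Solyc08g081350.2, Solyc10g006755.1 and Solyc02g089500.3) stayed under 6 CPM, with log2 fold changes from -0.38 to 0.57. Solyc07g006630.3, with the largest of these, had an adjusted p of 0.15, and 0.048 without JMJ6-OE replicate 1. CONSTANS-LIKE 12-like (Solyc05g046040.2) had no count.

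**Figure D2:**
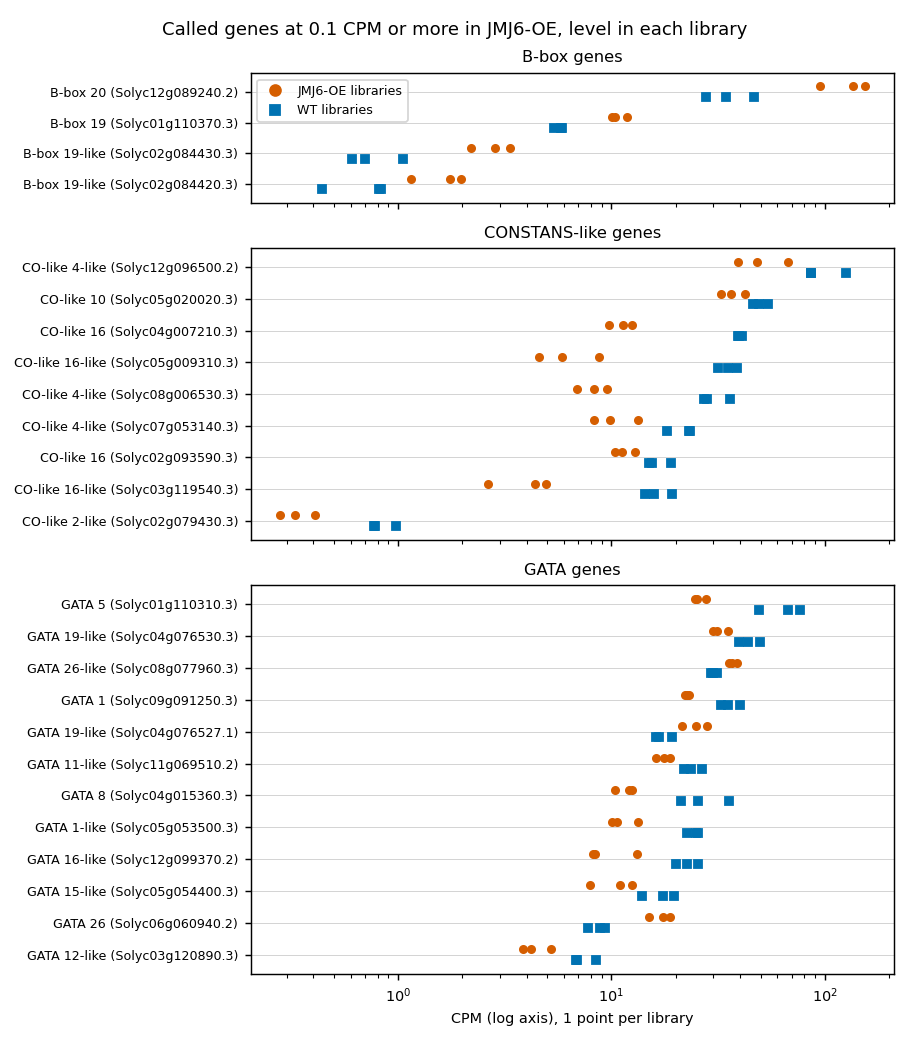
Level of 25 of the 26 called genes in each library, in CPM on a log axis, with JMJ6-OE libraries as orange circles above WT libraries as blue squares. GATA21 is left out because 2 of its JMJ6-OE values are 0. No gene shown has overlapping groups, but the genes were chosen by their calls, which favours groups that lie apart. B-box 20 lies at 94.8 to 155 CPM in JMJ6-OE, against 27.9 to 46.6 CPM in WT.

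GATA21 (Solyc07g038160.3) had the largest relative difference. Its Arabidopsis namesake, also called GNC, promotes chlorophyll synthesis and chloroplast growth. It had 0, 2 and 0 counts in JMJ6-OE libraries, against 32, 27 and 35 counts in WT libraries. The ratio of the summed counts per scaled library size, JMJ6-OE over WT, was 0.0248 (exact 95% binomial interval 0.00296 to 0.0922, counting error only). The adjusted p was 0.0032. A GATA21-like row (Solyc12g008830.2) had no count.

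GATA5 (Solyc01g110310.3) was the most abundant GATA gene in WT, per length. It stood at 24.5, 25.3 and 27.9 CPM in JMJ6-OE libraries, against 49.2, 76.2 and 67.1 CPM in WT libraries (log2 fold change -1.31 ± 0.16, adjusted p = 0.0014). The spread was in WT, while the JMJ6-OE libraries lay close together. The other 3 rows described as GATA5 were not called, with log2 fold changes from -1.15 to 0.02 and levels under 7 CPM. GATA8 (Solyc04g015360.3), whose Arabidopsis namesake promotes seed germination, stood at 12.03, 12.5 and 10.3 CPM in JMJ6-OE libraries, against 21.2, 35.7 and 25.4 CPM in WT libraries (-1.24 ± 0.20, adjusted p = 0.0037). GATA8-like (Solyc05g056120.3) had overlapping groups, with 29.0, 20.7 and 18.4 CPM in JMJ6-OE libraries, against 26.7, 33.7 and 25.4 CPM in WT libraries. JMJ6-OE replicate 1 was the high library there (-0.33 ± 0.19, adjusted p = 0.22, and -0.55 with an adjusted p of 0.029 without it).

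Both GATA1 genes fell without overlap. GATA1-like (Solyc05g053500.3) stood at 10.7, 13.3 and 10.1 CPM in JMJ6-OE libraries, against 22.5, 24.8 and 25.5 CPM in WT libraries (-1.10 ± 0.13, adjusted p = 0.0013). GATA1 (Solyc09g091250.3) stood at 23.2, 22.6 and 22.2 CPM in JMJ6-OE libraries, against 40.2, 32.8 and 35.0 CPM in WT libraries (-0.67 ± 0.10, adjusted p = 0.0032). GATA16-like (Solyc12g099370.2, symbol GATA15) stood at 13.2, 8.41 and 8.23 CPM in JMJ6-OE libraries, against 22.6, 25.4 and 20.2 CPM in WT libraries. JMJ6-OE replicate 1 was again nearest to WT (-1.19 ± 0.20, adjusted p = 0.0048). GATA16 (Solyc01g100220.3) averaged 0.963 ± 0.0946 CPM in JMJ6-OE and 1.52 ± 0.112 CPM in WT (n = 3 each), without overlap but not called (-0.66 ± 0.26, adjusted p = 0.091).

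Another 3 GATA genes fell with calls that leaving out a library could end. GATA12-like (Solyc03g120890.3), whose Arabidopsis namesake holds seeds dormant, stood at 4.22, 3.83 and 5.19 CPM in JMJ6-OE libraries, against 8.42, 6.79 and 6.93 CPM in WT libraries (-0.74 ± 0.18, adjusted p = 0.018, and 0.073 without JMJ6-OE replicate 2). GATA15-like (Solyc05g054400.3) stood at 12.4, 10.997 and 7.90 CPM in JMJ6-OE libraries, against 13.9, 19.6 and 17.5 CPM in WT libraries (-0.70 ± 0.20, adjusted p = 0.033). JMJ6-OE replicate 1 lay close to WT replicate 1, and the call was lost without JMJ6-OE replicate 2 or 3 (adjusted p = 0.084 and 0.075) or WT replicate 2 or 3 (adjusted p = 0.11 and 0.085). GATA11-like (Solyc11g069510.2) stood at 18.8, 16.1 and 17.6 CPM in JMJ6-OE libraries, against 26.7, 23.6 and 21.9 CPM in WT libraries (-0.46 ± 0.12, adjusted p = 0.021). It was not called without JMJ6-OE replicate 2 or 3 (adjusted p = 0.087 and 0.057) or WT replicate 1 or 2 (adjusted p = 0.053 and 0.055).

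Of 5 genes described as GATA26, 2 rose, none fell and 1 had no count. GATA26 (Solyc06g060940.2) stood at 15.003, 17.5 and 18.9 CPM in JMJ6-OE libraries, against 8.83, 7.74 and 9.37 CPM in WT libraries, a 1.98-fold increase with a wide gap between the groups (0.99 ± 0.14, adjusted p = 0.0022). The increase of GATA26-like Solyc08g077960.3 was small, with 35.6, 36.8 and 38.8 CPM in JMJ6-OE libraries, against 29.3, 29.97 and 31.2 CPM in WT libraries (0.30 ± 0.08, adjusted p = 0.029). It was lost without JMJ6-OE replicate 2 or 3 (adjusted p = 0.094 and 0.087) or WT replicate 1, 2 or 3 (adjusted p = 0.081, 0.099 and 0.079). GATA26-like Solyc01g108047.1 averaged 10.8 ± 1.67 CPM in JMJ6-OE and 7.68 ± 1.12 CPM in WT (n = 3 each), with a log2 fold change of 0.49 ± 0.17 (adjusted p = 0.065, and 0.0498 by DESeq2). GATA26-like Solyc08g007190.3 stood at 31.3, 28.6 and 28.0 CPM in JMJ6-OE libraries, against 28.6, 29.2 and 31.4 CPM in WT libraries, with overlapping groups (-0.02 ± 0.09, adjusted p = 0.88).

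GATA19-like genes moved in opposite directions at neighbouring identifiers of chromosome 4. Solyc04g076527.1 rose, with 21.4, 25.0 and 28.0 CPM in JMJ6-OE libraries, against 19.3, 16.2 and 16.7 CPM in WT libraries (0.51 ± 0.13, adjusted p = 0.022). Solyc04g076530.3 fell, with 35.2, 30.02 and 31.4 CPM in JMJ6-OE libraries, against 49.9, 43.9 and 39.8 CPM in WT libraries (-0.47 ± 0.11, adjusted p = 0.018). Of the counts of both rows, Solyc04g076530.3 held 62.2%, 54.6% and 52.8% in JMJ6-OE libraries, against 72.1%, 73.1% and 70.4% in WT libraries. These shares do not depend on how libraries are scaled, and they do not overlap between the groups. Both rows have the same symbol and description, so how the counting split reads between them is uncertain. The call of Solyc04g076527.1 was lost without JMJ6-OE replicate 2 or 3 (adjusted p = 0.073 and 0.069) or WT replicate 2 or 3 (adjusted p = 0.082 and 0.076). That of Solyc04g076530.3 was lost without JMJ6-OE replicate 2 or 3 (adjusted p = 0.081 and 0.057) or WT replicate 2 (adjusted p = 0.052). In the other pairs of adjacent identifiers with one description, the shares overlapped or nearly met. Solyc07g045180.3 held 42.4% to 45.5% of the CONSTANS-LIKE 10 pair in JMJ6-OE libraries, against 40.6% to 49.0% in WT libraries. Solyc02g084430.3 held 61.9% to 65.7% of the B-box 19-like pair in JMJ6-OE libraries, against 42.9% to 61.4% in WT libraries, where counts were few.

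**Figure D3:**
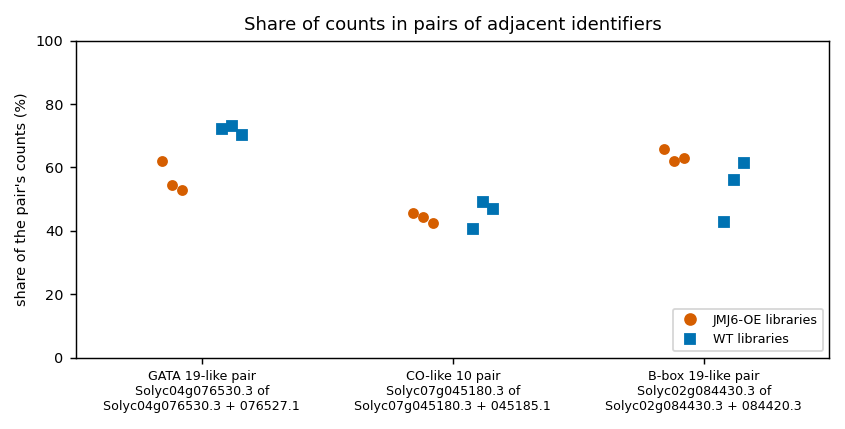
Share of a pair's counts that falls on the first row, in percent, for 3 pairs of adjacent identifiers, with 1 point per library and JMJ6-OE left of WT. The GATA19-like pair stands at 52.8% to 62.2% in JMJ6-OE, below the 70.4% to 73.1% of WT, and the CONSTANS-LIKE 10 pair overlaps.

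The remaining tested GATA genes were not called. GATA24 (Solyc01g106030.3) stood at 28.2, 34.3 and 34.3 CPM in JMJ6-OE libraries, against 27.8, 25.6 and 23.5 CPM in WT libraries, with JMJ6-OE replicate 1 close to WT replicate 1 (0.33 ± 0.12, adjusted p = 0.061, and 0.017 without JMJ6-OE replicate 1). GATA24-like (Solyc10g047640.2) stood at 18.0, 16.1 and 19.3 CPM in JMJ6-OE libraries, against 19.1, 16.3 and 16.1 CPM in WT libraries (0.05 ± 0.12, adjusted p = 0.76). GATA19-like Solyc01g106040.3 stood at 15.9, 14.98 and 12.2 CPM in JMJ6-OE libraries, against 14, 19.2 and 20.2 CPM in WT libraries (-0.31 ± 0.17, adjusted p = 0.20). The groups of both genes overlap. GATA25 (Solyc04g076525.1), GATA23-like (Solyc09g075610.3, a lateral root factor in Arabidopsis) and a GATA-like row (Solyc01g104438.1) lay near or under 1 CPM, with log2 fold changes of 0.39, 0.69 and -0.75. In all, 13 of the 65 genes were not tested. Of these, 7 had no count in any library and 6 had at most 13 counts in any library. A count of 0 allows up to 3 counts, or 0.082 to 0.11 CPM depending on the library, so lower levels were not detectable at this depth.

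Levels of different genes were compared on the authors' FPKM (fragments scaled to gene length and library size). In WT the order was led by CONSTANS-LIKE 4-like Solyc12g096500.2 with 74.9 ± 15.4 FPKM, CONSTANS-LIKE 13 with 61.2 ± 4.42 FPKM and GATA5 with 47.8 ± 11.4 FPKM (SD, n = 3). The single libraries of each gene in this order overlap those of the next. In JMJ6-OE the order was led by B-box 20 with 82.4 ± 14.97 FPKM, which is seventh in WT at 27.0 ± 7.73 FPKM. CONSTANS-LIKE 13 followed with 55.2 ± 11.4 FPKM and Solyc12g096500.2 with 34.4 ± 11.5 FPKM. GATA5 was eighth in JMJ6-OE with 16.8 ± 0.478 FPKM. Within the B-box class, B-box 20 held 58.7% to 64.8% of the summed FPKM in JMJ6-OE libraries, against 30.3% to 40.9% in WT libraries.

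Summed over the 9 B-box rows, FPKM was 112, 140 and 146 in JMJ6-OE libraries, against 66.2, 86.3 and 71.9 in WT libraries. The 20 CONSTANS-like rows summed to 252, 197 and 189 FPKM in JMJ6-OE libraries, against 369, 345 and 326 FPKM in WT libraries. Most of this gap lay in the 7 genes described as CONSTANS-LIKE 16 or 4, a grouping made after the values were seen. They summed to 63.2 ± 15.1 FPKM in JMJ6-OE and 177 ± 18.4 FPKM in WT (n = 3 each), while the other 13 rows summed to 149.5 ± 19.4 FPKM in JMJ6-OE and 169 ± 7.59 FPKM in WT. The 36 GATA rows summed to 202, 181 and 168 FPKM in JMJ6-OE libraries, against 268, 311 and 281 FPKM in WT libraries. FPKM is not rescaled between libraries here, so genes with flat CPM, such as CONSTANS-LIKE 13, read slightly lower in JMJ6-OE on this scale.

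**Figure D4:**
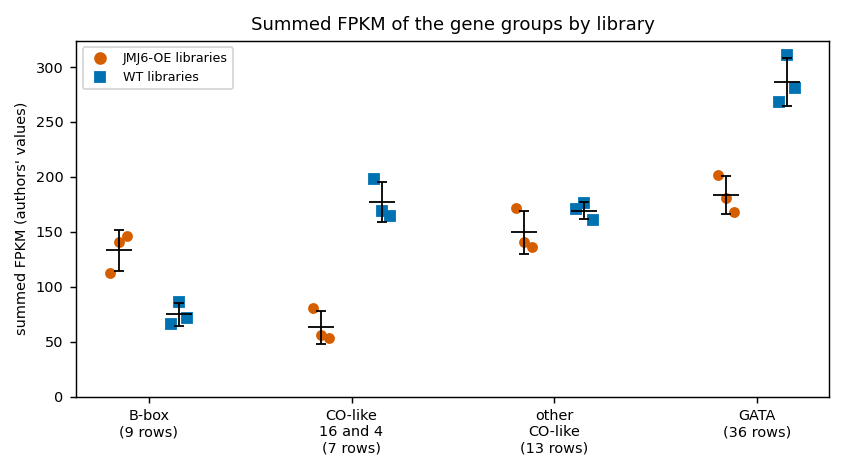
Summed FPKM per library of the B-box rows, the CONSTANS-LIKE 16 and 4 rows, the other CONSTANS-like rows and the GATA rows, with JMJ6-OE (orange circles) left of WT (blue squares). Black lines give the mean and SD of 3 libraries. B-box sums are 112 to 146 in JMJ6-OE, above the 66.2 to 86.3 of WT, and the sums of CONSTANS-LIKE 16 and 4 are 53.0 to 80.6 in JMJ6-OE, below the 164.5 to 198 of WT.

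Among the JMJ6-OE libraries, replicate 3 was farthest from WT in 10 of the 19 genes that fell (52.6%) and in 6 of the 7 that rose. Over all called genes it was farthest in 46.1% of those that fell and 68.0% of those that rose.

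Genes that act with these factors were taken from lists by description. In light signalling, after 75 rows of DNA helicases that share the name PIF were set aside, 4 of 15 tested genes rose and 4 fell, with a median log2 fold change of -0.04, where the background over all tested genes is 17.5% higher and 16.8% lower. HY5 (Solyc08g061130.3), the partner of several B-box proteins in Arabidopsis, stood at 28.3, 49.4 and 51.1 CPM in JMJ6-OE libraries, against 9.91, 16.0 and 10.8 CPM in WT libraries, a 3.51-fold increase (1.81 ± 0.28, adjusted p = 0.0042). As for B-box 20, JMJ6-OE replicate 1 was the lowest of its group. Over all genes called higher, JMJ6-OE replicate 1 was the highest of its group in 7.34%. The share in which it was the lowest was not computed. The phytochrome-interacting factor PIF4 (Solyc07g043580.3), a promoter of stem elongation in Arabidopsis, fell to 10.6, 5.14 and 4.34 CPM in JMJ6-OE libraries, against 28.3, 17.4 and 20.7 CPM in WT libraries (-1.72 ± 0.37, adjusted p = 0.014, and 0.056 without JMJ6-OE replicate 2). Adjacent rows described as PIF1, a repressor of carotenoid synthesis in Arabidopsis seedlings, rose by 1.29 ± 0.19 (Solyc09g063015.1) and 1.39 ± 0.26 (Solyc09g063010.3), and may share reads.

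Of the NF-Y proteins, DNA-binding partners of CONSTANS-like factors, 33.3% were called (4 higher and 3 lower of 21 tested, median 0.11), close to the 34.3% of all tested genes. NFYB3 (Solyc07g065500.2) fell to 21.9, 11.9 and 14.3 CPM in JMJ6-OE libraries, against 33.4, 40.8 and 39.0 CPM in WT libraries (-1.23 ± 0.22, adjusted p = 0.0065), and NFYC1 (Solyc02g091030.3) by 0.56 ± 0.11 on the log2 scale. NFYA8 (Solyc08g062210.3) rose by 0.45 ± 0.08. NFYA3 (Solyc12g009050.2) had 96 counts over the JMJ6-OE libraries, against 2 over the WT libraries, a ratio of 56.0 per scaled library size (exact 95% binomial interval 15.1 to 469, counting error only). Of 6 rows of the florigen family, 5 had no count and none was tested, with at most 5 counts in a library. Within this family, FT is the known flowering target of CONSTANS, and the list also took in its relatives.

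In chlorophyll synthesis, a process promoted by GATA21 in Arabidopsis, 7 of 16 tested genes fell (43.8%) and 3 rose (18.8%), with a median of -0.17, against 16.8% lower and 17.5% higher over all tested genes. Protochlorophyllide reductase, the light-dependent step, fell in the rows Solyc12g013710.2 (4.48 ± 1.35 CPM in JMJ6-OE and 55.3 ± 5.06 CPM in WT, n = 3 each) and Solyc10g006900.3 (7.88 ± 2.51 CPM in JMJ6-OE and 83.7 ± 16.2 CPM in WT). Another row for this enzyme, Solyc07g054210.3, averaged 162 CPM in JMJ6-OE and 153 CPM in WT and was not called (adjusted p = 0.73). The glutamyl-tRNA reductase gene Solyc01g106390.3, at the entry of the pathway, fell by 1.73 ± 0.13 on the log2 scale (adjusted p = 2.4e-04). A chlorophyllide a oxygenase gene of low level (Solyc03g095750.2), which makes chlorophyll b, rose by 2.80 ± 0.38.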

How the data were processed

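The deposited table holds, per the file headers, a raw count and an FPKM value from the authors for each gene and library, the authors' log2 ratio of group means, and their p-value and false discovery rate. The submitters' processing notes name HISAT2. No version, counter, strandedness, genome build, annotation or method for the deposited p-value is given in the sources used here, so overlapping, antisense and near-identical genes are uncertain. Symbols and descriptions are the table's. Chromosomes are read from the identifiers, of which 0 were found in the reference gene table, and no sequences were used.

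Genes were kept with filterByExpr (minimum count 10) and scaled by TMM. The deposited counts were tested with edgeR 4.0.16 (R 4.3.3, robust quasi-likelihood, genotype as the 1 term), with Benjamini-Hochberg adjustment over 20143 genes. The SE is the absolute log2 fold change over the root of F, and CPM uses scaled library sizes. The functions were tested on simulated counts. No library pair within a group was close enough in counts to be a copy.

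The members and lists were chosen with earlier results of these data known. Per-library values are given for called members and for members with a mean of at least 10 CPM, and up to 4 called genes of each list were named by adjusted p. The grouping of CONSTANS-LIKE 16 with 4, the shares within adjacent rows, the sieve element genes, PG2, Solyc07g054210.3 and uncalled genes of lower level were chosen after their values were seen. The alternatives tried were scaling by RLE or upper quartile, DESeq2 1.42.0, limma-voom 3.58.1, 2 other filters, a block for replicate number and the removal of single libraries.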

Additional observations from a re-analysis of the deposited data

How the results depend on the processing

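The count of the zinc finger genes that fell was 17 to 19 under all 7 alternatives to scaling, test, filter or design. The count of those that rose was 7 to 9, except 4 with the replicate number as a block. A filter of 1 CPM in 3 libraries gave 17 that fell because GATA21 and Solyc02g079430.3 were then not tested. The block gave 17 because Solyc05g054400.3 and Solyc02g079430.3 were tested but not called (adjusted p = 0.053 and 0.072). Same-numbered libraries showed no shared deviation (correlations of 0.0595, 0.0272 and -0.0559), so the block rests on a shared number alone. Leaving out 1 library gave 4 to 10 genes higher and 11 to 19 lower, and over all genes 2027 to 4169 higher and 2046 to 3962 lower, with the lowest counts over all genes without JMJ6-OE replicate 2. Upper-quartile scaling moved all fold changes by -0.06 at the median and turned the sign of 4 uncalled genes near 0: Solyc10g047640.2 (-0.010), Solyc05g024010.3 (-0.036), Solyc09g074560.3 (-0.030) and Solyc02g084590.3 (-0.037). Leaving out a library turned the sign of 10 uncalled genes, with log2 ranges of -0.028 to 0.12, -0.039 to 0.089, -0.084 to 0.11 and -0.11 to 0.12 for these 4 in that order. The ranges were -0.52 to 0.036 for Solyc03g083400.3, -0.075 to 0.62 for Solyc04g076525.1, -0.16 to 0.040 for Solyc07g062160.3, -0.11 to 0.23 for Solyc10g006755.1, -0.25 to 0.24 for Solyc02g089500.3 and -0.083 to 0.011 for Solyc08g007190.3. The cause was not tested. No called gene changed sign. Depth limits the 13 tested genes with a mean under 2 CPM, of which 4 were called.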
